A study of Mus musculus with 6 samples.

Results

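Indirect pathway striatal projection neurons are the GABAergic neurons of the striatum that carry the dopamine D2 receptor. They were chosen by their own counts of unique molecular identifiers (UMIs, each standing for 1 captured RNA molecule) in nuclei of mouse frontal lobe: at least 4 UMIs over the 6 projection neuron genes Rgs9, Adcy5, Pde1b, Gng7, Ppp1r1b and Pde10a, and at least 2 UMIs over Drd2, Adora2a, Penk and Gpr6. That second sum also had to exceed 2 times the sum of the direct pathway genes Drd1, Tac1 and Pdyn. At most 1 UMI was allowed over Otof, Tshz1 and Col11a1, which mark another class of projection neuron, and at most 1 over the vesicular glutamate transporters Slc17a7 and Slc17a6. Of 39752 deposited barcodes, 30840 passed a floor of 500 detected genes and a ceiling of 5% mitochondrial UMIs, and 1819 of these (5.90%) met the rule. They are called D2 neurons here, and the mirror rule with the D2 and D1 sums exchanged gave 1950 direct pathway neurons, called D1 neurons.

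The 6 libraries are single-nucleus RNA libraries from 6 mice, 1 mouse each. All mice were Tg-SwDI, a line in which neurons express human amyloid precursor protein with the Swedish, Dutch and Iowa changes from a Thy1 promoter and in which amyloid gathers in brain vessels. The groups were 3 mice labelled SwDI/TWT, with the normal Trem2 gene, and 3 labelled SwDI/TKO, with Trem2 knocked out. Trem2 encodes a lipid-sensing receptor of microglia, the immune cells of the brain. There were no mice without the transgene, and the sources used here do not state age, sex or the structure of the knockout allele. The tissue is labelled frontal lobe, so that the striatal nuclei are those the dissection took along.

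In the basal ganglia, D2 neurons project to the external globus pallidus and their activity holds movement back, while D1 neurons project to the output nuclei and promote it. Dopamine lowers cAMP in D2 neurons through the D2 receptor, and adenosine raises it through the adenosine receptor encoded by Adora2a. Their peptide is enkephalin, made from the Penk precursor, whereas D1 neurons use substance P (from Tac1) and dynorphin (from Pdyn).

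The 6 libraries differed in ways that touch every comparison of genotypes. Knockout mouse 1 was counted with Cell Ranger 7.0.0 and the other 5 libraries with 6.1.2, per the file headers. Release 7.0.0 counts reads in introns unless told otherwise; the sources used here do not state the setting. In the D2 neurons of knockout mouse 1 the fifth of genes with the longest introns stood 2.57 higher, on the log2 scale, than the fifth with the shortest, relative to the mean of the libraries, against -0.21 to 0.33 in the other 5 libraries. Across 9539 genes its log2 profile correlated with the other libraries at r = 0.549 to 0.623, against 0.892 to 0.941 among the other 5, a description over genes that share depth and annotation. The genotype tests were therefore run with and without knockout mouse 1. The D2 neurons held 462989 to 1415531 UMIs per library. Their median depth was 2496, 2559 and 2732 UMIs per nucleus in wild-type mice 1 to 3 and 6880, 2910 and 3203 in knockout mice 1 to 3, which did not overlap between genotypes (two-sided exact permutation p = 0.1, which is the lowest value possible with 3 mice a group). Without knockout mouse 1 they did not overlap either (two-sided exact permutation p = 0.2, the lowest value possible with 3 against 2 mice). Between 3 and 12 barcodes were shared by each of 15 pairs of libraries, and 1 D2 neuron carried a shared barcode. Trem2, the targeted gene, gave 9.43, 7.79 and 6.06 UMIs per 100 UMIs of 7 microglial markers in the wild-type mice. In the knockout mice it gave 2.005, 4.04 and 2.40. These were counted in the remaining nuclei, which held fewer than 4 projection neuron UMIs and at most 1 UMI over Slc17a7 and Slc17a6. The remaining nuclei take in glia and other neurons alike. The D2 neurons themselves held 18 Trem2 UMIs for wild type against 4 in knockout.

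The genes of the rule describe the class and are not results. Drd2 stood at 173, 199 and 160 CPM (UMI counts scaled to the total of the class in a library) in wild-type mice 1 to 3 and at 258, 239 and 253 in knockout mice 1 to 3. Penk, the enkephalin precursor, was the most abundant of the D2-side genes, with 1294, 1240 and 1181 CPM for wild type against 512, 1385 and 1564 in knockout. The adenosine receptor gene Adora2a ran from 93.0 CPM in knockout mouse 1 to 406 in knockout mouse 3, and the orphan receptor gene Gpr6 from 53.6 to 211 in the same mice. In D1 neurons of the same libraries Drd2 did not pass 4.63 CPM, Adora2a 4.02, Gpr6 7.56 and Penk 62.4. Among the genes of all projection neurons, the phosphodiesterase gene Pde10a was the most abundant at 3001 to 3536 CPM, and the phosphoprotein gene Ppp1r1b, known as DARPP-32, ran from 51.9 in knockout mouse 1 to 251 in knockout mouse 3.

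**Figure D1:**
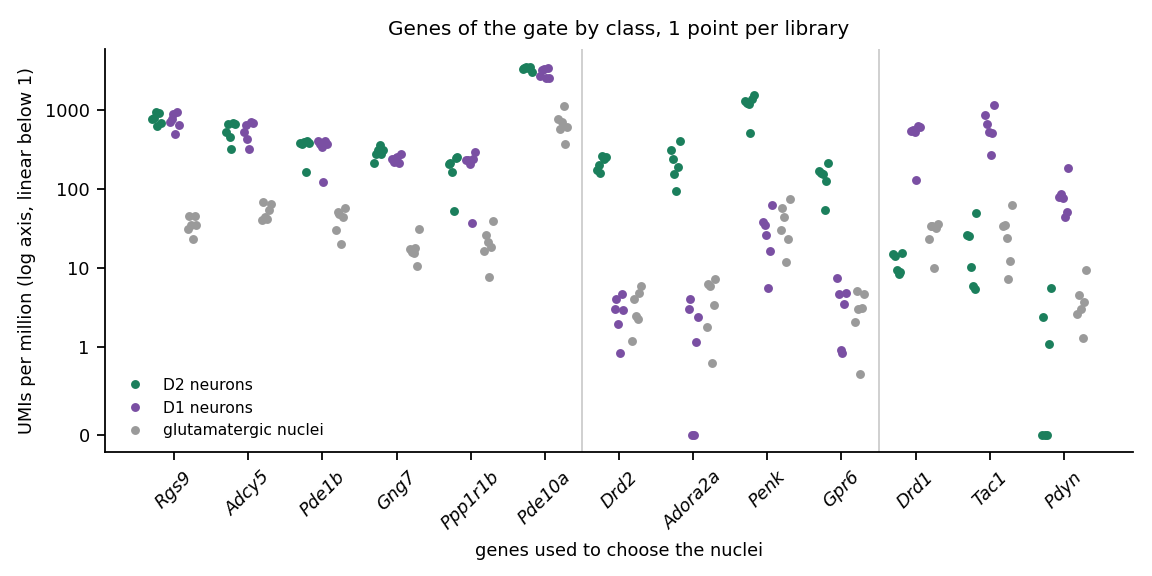
CPM (vertical log axis, linear below 1) of 13 genes used to choose the nuclei, in D2 neurons, D1 neurons and glutamatergic nuclei, 1 point per library. Drd2, Adora2a, Penk and Gpr6 separate D2 from D1 neurons because the rule used them; the low points of Penk, Gpr6 and Ppp1r1b in D2 neurons are knockout mouse 1.

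A UMI of Penk was found in 93.1% to 97.3% of D2 neurons of a library, of Drd2 in 38.3% to 63.8%, of Adora2a in 35.8% to 66.3% and of Gpr6 in 28.9% to 47.8%. In glutamatergic nuclei, which were deeper (median 2938 to 9121 UMIs), the shares were 7.60% to 21.6% for Penk, 0.338% to 2.36% for Drd2, 0.563% to 2.55% for Adora2a and 0.727% to 1.77% for Gpr6. Whether those UMIs are the nuclei's own or free RNA was not tested. Between 8.98% (knockout mouse 3) and 27.6% (knockout mouse 1) of the D2 neurons of a library qualified on Penk alone. Nuclei just inside the rule, with exactly 2 D2-side UMIs, numbered 243 and had a median over libraries of 55.0 CPM of Gpr52, a receptor gene of D2 neurons that the rule did not use. The 411 nuclei just outside, with 1 D2-side UMI and no D1-side UMI, had 26.5. At the other limit stood 46 nuclei with exactly 4 projection neuron UMIs and 51 nuclei with 3, and the median of Gpr52 was 0 CPM in both, with a highest library of 129 inside and 0 outside.

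That the nuclei are striatal projection neurons was checked against genes that the rule did not use; these genes do not separate D2 from D1 neurons. Of 17 genes known from all striatal projection neurons, 15 had a higher median over the libraries in D2 neurons than in glutamatergic nuclei, and for 13 the lowest D2 library lay above the highest glutamatergic one. The same counts were not made over all genes, so they cannot show that these genes stand out from others. Gad1, Gad2 and Slc32a1, which other GABAergic neurons also express, are among the 13. Glutamatergic nuclei were set apart by Slc17a7 and Slc17a6, so GABAergic genes do not tell projection neurons from other GABAergic neurons here. The glutamate decarboxylase gene Gad2, needed for GABA synthesis, had a median of 214 CPM in D2 neurons against 11.6 in glutamatergic nuclei. The retinoic acid receptor gene Rarb had 164 against 10.8. In D1 neurons these medians were 194 and 159. Gad1 and Slc32a1, shared by GABAergic neurons, were as high in the remaining nuclei (141 and 130 CPM), which include other neurons, as in D2 neurons (135 and 130). Gad2 had a median of 128 CPM in the remaining nuclei and Rarb 13.5. The exceptions were Arpp21 (1401 against 1707) and Ano3 (308 against 335), which glutamatergic nuclei also expressed. The nuclei were not clustered.

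Some members carried transcripts of other neurons. At least 3 UMIs over the interneuron and cholinergic markers Sst, Pvalb, Vip, Npy, Lhx6, Adarb2, Chat and Slc5a7 were found in 6 of 175, 1 of 459 and 3 of 321 D2 neurons of wild-type mice 1 to 3, and in 20 of 152, 1 of 300 and 6 of 412 of knockout mice 1 to 3. Knockout mouse 1 stood apart at 13.2%, 19 of its 20 nuclei with at least 3 Adarb2 UMIs and 10 with at least 3 Vip UMIs. The limit of 3 UMIs was the same at every depth. The median depth of D2 neurons was 6880 UMIs in knockout mouse 1 and 2496 to 3203 in the other 5 libraries. The part of depth and of the software version in this share was not tested. In D1 neurons the same count was 5 of 225, 12 of 485 and 11 of 336 in wild-type mice 1 to 3. It was 52 of 135, 8 of 265 and 17 of 504 in knockout mice 1 to 3. The share in knockout mouse 1 was thus larger in D1 than in D2 neurons. The summed level of the 8 markers was 238, 81.8 and 155 CPM in wild-type and 2216, 50.5 and 208 CPM in knockout D2 neurons, and 46.7 in knockout mouse 1 once those nuclei were left out. Markers of glia overlapped between genotypes. The 8 astrocyte markers summed to 477 to 671 CPM over the 6 libraries, the 8 oligodendrocyte markers to 160 to 300 and the 7 microglial markers to 39.5 to 154; the astrocyte and oligodendrocyte sums were above the interneuron sum in each library but knockout mouse 1.

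D2 neurons made up 3.91%, 8.83% and 6.09% of the nuclei of wild-type mice 1 to 3 and 1.98%, 7.205% and 10.1% of those of knockout mice 1 to 3. The libraries spread widely and the 2 genotypes overlapped: the mean was 6.28% ± 2.46 (SD, n = 3) for wild type against 6.44% ± 4.12 (SD, n = 3) in knockout, with no difference detected (two-sided exact permutation p = 1). Without knockout mouse 1 the knockout mean was 2.39 percentage points higher (two-sided exact permutation p = 0.4). As a share of D1 plus D2 neurons, which is taken within striatal nuclei, D2 neurons came to 43.8%, 48.6% and 48.9% for wild type against 53.0%, 53.1% and 44.98% in knockout. The knockout mean was 3.27 points higher, within the spread between mice (two-sided exact permutation p = 0.3). Depth differs between libraries, so each nucleus was also thinned to 1000 UMIs and the rule applied again. D2 neurons were then 1.99%, 4.59% and 2.4995% of the nuclei of wild-type mice 1 to 3 and 0.431%, 3.85% and 5.44% of those of knockout mice 1 to 3, with 233 to 699 shallower nuclei per library left out, and the genotypes still overlapped. As a share of D1 plus D2 neurons they were then 49.7%, 58.4% and 56.4% for wild type against 69.6%, 64.2% and 45.8% in knockout. Knockout mouse 1 then held 32 D2 and 14 D1 neurons. With nuclei of at least 3 interneuron UMIs left out in place of thinning, its share of D1 plus D2 was 61.4%. Counting error is smaller than the spread between mice: exact Clopper-Pearson 95% intervals of the share of nuclei ran from 1.68% to 2.32% in knockout mouse 1 and from 9.21% to 11.1% in knockout mouse 3. The mice are the replicates, and intervals cover counting error only.

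**Figure D2:**
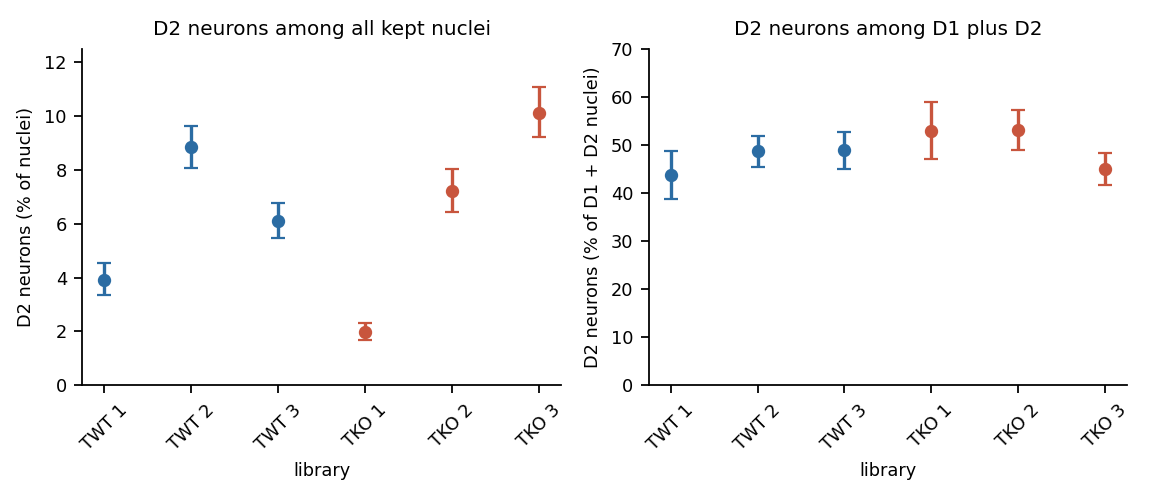
D2 neurons as a percentage of all kept nuclei (left) and of D1 plus D2 nuclei (right), per library, wild type in blue and knockout in red; bars are exact 95% binomial intervals. The share of all nuclei runs from 1.98% to 10.1%, both ends in knockout mice. The share of D1 plus D2 lies between 43.8% and 53.1% in these unthinned counts, and between 45.8% and 69.6% after thinning to 1000 UMIs.

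The main question for the class itself was which genes outside the rule separate D2 from D1 neurons of the same mice. Summed counts of the 2 classes were compared with the mouse as a block, and the 18 genes of the rule were left out of the test. At an adjusted p under 0.05 in edgeR's quasi-likelihood test, 440 of 9314 genes (4.72%) differed, 248 (2.66%) higher and 192 (2.06%) lower in D2 neurons. Since both classes come from each library, they share its free RNA, software and depth. DESeq2 called 167 genes and the fit without the block 18, all of them among the 440. Values below are TMM-normalized CPM and are given as the lowest, median and highest of the 6 mice.

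Of the genes known from D2 neurons, Gpr52, Upb1, Sp9, Grik3, Gprin3 and Six3 were tested and all 6 were called higher; Plxdc1, Ttc12 and Ankk1 were too low to test. Gpr52, an orphan receptor that raises cAMP, had 26.4, 89.8 and 100 CPM in D2 and 0, 3.23 and 5.84 in D1 neurons. The lowest D2 value was that of knockout mouse 1, and the 2 classes did not overlap (log2 fold change 4.74 ± 0.20 SE, edgeR adjusted p = 3.93e-20, higher in 6 of 6 mice). Upb1, an enzyme of pyrimidine breakdown, had 25.3, 45.4 and 96.9 CPM in D2 neurons. In D1 neurons it gave 4 UMIs in all against 331 in D2 neurons, so that its fitted log2 difference of 6.34 ± 0.32 depends on the prior count. Sp9, a zinc finger factor that D2 neurons need to form, had 22.1, 39.7 and 47.0 CPM in D2 and 0.978, 3.13 and 7.82 in D1 neurons, again without overlap (log2 fold change 3.58 ± 0.27 SE, edgeR adjusted p = 2.38e-12).

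The other 3 genes overlapped more. Grik3, a kainate receptor subunit, had 62.3, 86.5 and 254 CPM in D2 and 2.14, 5.17 and 67.0 in D1 neurons; both highest values were those of knockout mouse 1, and without it the log2 fold change rose from 3.06 to 4.07. Gprin3, a regulator of neurite outgrowth that binds G proteins, was 0.61 ± 0.07 higher on the log2 scale, in 6 of 6 mice. The homeobox gene Six3 was 0.47 ± 0.12 higher in 5 of 6 mice, and its call was lost without wild-type mouse 3 (edgeR adjusted p = 0.113) and without knockout mouse 3 (edgeR adjusted p = 0.0885).

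Promoters are shown for 2 genes of the rule, Drd2 and Gpr6, and for 2 that the test found higher, Sp9 and Nt5e, so that the start regions of receptor genes can be set beside those of a transcription factor and an enzyme. Each sequence runs 5′ to 3′ from 250 bases before to 50 bases after the annotated start (RefSeq, GRCm38.p6). Capitals mark 2 motifs searched on both strands, the cAMP response element TGACGTCA and the GC box GGGCGG, which do not overlap each other. Drd2 lies at chr9:49340153-49340452 on the plus strand, Gpr6 at chr10:41072241-41072540 on the minus strand, Sp9 at chr2:73271676-73271975 on the plus strand and Nt5e at chr9:88327359-88327658 on the plus strand.
Drd2: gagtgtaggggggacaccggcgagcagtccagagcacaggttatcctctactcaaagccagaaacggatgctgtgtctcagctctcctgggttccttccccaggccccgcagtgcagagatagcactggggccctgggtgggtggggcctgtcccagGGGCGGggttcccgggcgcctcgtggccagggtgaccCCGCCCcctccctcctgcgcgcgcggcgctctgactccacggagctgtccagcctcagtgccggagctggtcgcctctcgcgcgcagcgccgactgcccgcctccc
Gpr6: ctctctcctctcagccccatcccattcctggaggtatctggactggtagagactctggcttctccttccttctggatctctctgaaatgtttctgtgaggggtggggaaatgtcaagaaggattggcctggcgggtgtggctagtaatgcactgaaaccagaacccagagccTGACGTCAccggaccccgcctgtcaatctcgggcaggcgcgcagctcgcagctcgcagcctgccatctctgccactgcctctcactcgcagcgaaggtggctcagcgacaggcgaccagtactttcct
Sp9: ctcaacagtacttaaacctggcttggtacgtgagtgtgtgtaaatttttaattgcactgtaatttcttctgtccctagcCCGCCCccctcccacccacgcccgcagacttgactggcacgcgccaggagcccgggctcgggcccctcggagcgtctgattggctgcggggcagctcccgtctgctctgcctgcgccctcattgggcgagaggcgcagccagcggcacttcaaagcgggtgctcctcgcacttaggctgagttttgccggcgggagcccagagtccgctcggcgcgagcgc
Nt5e: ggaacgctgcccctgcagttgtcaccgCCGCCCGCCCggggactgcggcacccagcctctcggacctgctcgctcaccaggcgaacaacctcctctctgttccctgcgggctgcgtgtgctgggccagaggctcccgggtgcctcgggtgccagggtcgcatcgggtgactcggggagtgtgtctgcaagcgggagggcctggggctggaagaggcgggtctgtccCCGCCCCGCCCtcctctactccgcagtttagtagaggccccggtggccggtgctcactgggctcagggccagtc

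Gpr6 holds a cAMP response element at position -78 from its start, a motif found in 1.79% of 32851 promoters of the same length. Drd2 holds 2 GC boxes, Nt5e 4 and Sp9 1. Of 22 genes looked up, 18 matched an entry (the others were Penk, Adora2a, Gpr52 and Necab1), and 14 of those were D2-side genes: these 14 have 19 annotated starts, of which 9 (47.4%) held a GC box, against 35.7% of all promoters, and 1 held a cAMP response element. A match is a description of these letters, not evidence that a factor binds there.

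Further enzymes and signalling genes were among the 10 with the largest fold toward D2 neurons. Nt5e, the surface enzyme that makes adenosine from AMP, had 59.1, 83.7 and 150 CPM in D2 and 7.26, 14.95 and 19.1 in D1 neurons, with no overlap (log2 fold change 2.64 ± 0.15 SE, edgeR adjusted p = 8.37e-16). Adk, the kinase that turns adenosine back into AMP, had 74.8, 97.9 and 397 CPM in D2 and 15.2, 16.3 and 109 in D1 neurons. Its 2 highest values were those of knockout mouse 1, and in the other 5 mice the classes did not overlap (74.8 to 133 against 15.2 to 19.0 CPM; log2 fold change over all mice 2.32 ± 0.12 SE).

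Gucy1a1, a subunit of the nitric oxide receptor that makes cGMP, had 155, 193 and 232 CPM in D2 and 62.8, 78.4 and 96.4 in D1 neurons, without overlap (log2 fold change 1.32 ± 0.09 SE, edgeR adjusted p = 3.55e-14). B3gat1, which builds the HNK-1 sugar of adhesion molecules, did not overlap either, at 46.4 to 101 against 14.5 to 36.7 CPM. The calcium-binding protein gene Necab1 (log2 fold change 1.79), the protein kinase D1 gene Prkd1 (1.10), the nesfatin precursor gene Nucb2 (1.09) and the cAMP phosphodiesterase gene Pde4b (1.08) were each higher in 6 of 6 mice. Necab1, Prkd1 and Pde4b were at their highest in knockout mouse 1 in both classes, Pde4b at 1848 CPM in its D2 neurons against 66.1 to 141 in those of the other mice.

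Toward D1 neurons the differences were as large. Isl1, a homeobox factor of direct pathway neurons, had 24.6, 44.7 and 62.1 CPM in D1 neurons and 4 UMIs in all in D2 neurons, against 309. Ebf1, a transcription factor of differentiating D1 neurons, had 142, 285 and 393 CPM in D1 and 2.12, 4.36 and 27.4 in D2 neurons, with no overlap (log2 fold change -5.01 ± 0.21 SE, edgeR adjusted p = 3.93e-20). Mdk, the growth factor midkine, had 24.6, 122 and 152 CPM in D1 and 0, 2.26 and 8.55 in D2 neurons (log2 fold change -5.12 ± 0.21 SE, edgeR adjusted p = 3.14e-20), also with no overlap.

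Cntnap3, a neuronal adhesion molecule, did not overlap either, at 41.5 to 166 CPM in D1 and 0 to 8.44 in D2 neurons. Sfxn1, a mitochondrial serine carrier, had a log2 fold change of -1.44 ± 0.11 and Tmem44 of -1.42 ± 0.15, both without overlap. Foxp2, a transcription factor of both classes, was lower in D2 neurons of 6 of 6 mice (-1.75 ± 0.14), as were the G protein subunit gene Gnb4 (-1.63 ± 0.17), the alpha2C adrenergic receptor gene Adra2c (-1.53 ± 0.14) and the cell surface genes Lingo2 (-2.43 ± 0.20) and Il1rapl2 (-1.70 ± 0.20). Lingo2 moved to -3.79 without knockout mouse 1, and Il1rapl2 was then too low to test. Reln, which encodes the extracellular protein reelin, was -0.52 ± 0.11 and lower in D2 neurons of 5 of 6 mice. The D1-type genes Eya1, Chrm4, Slc35d3 and Zfp521 were not tested.

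**Figure D3:**
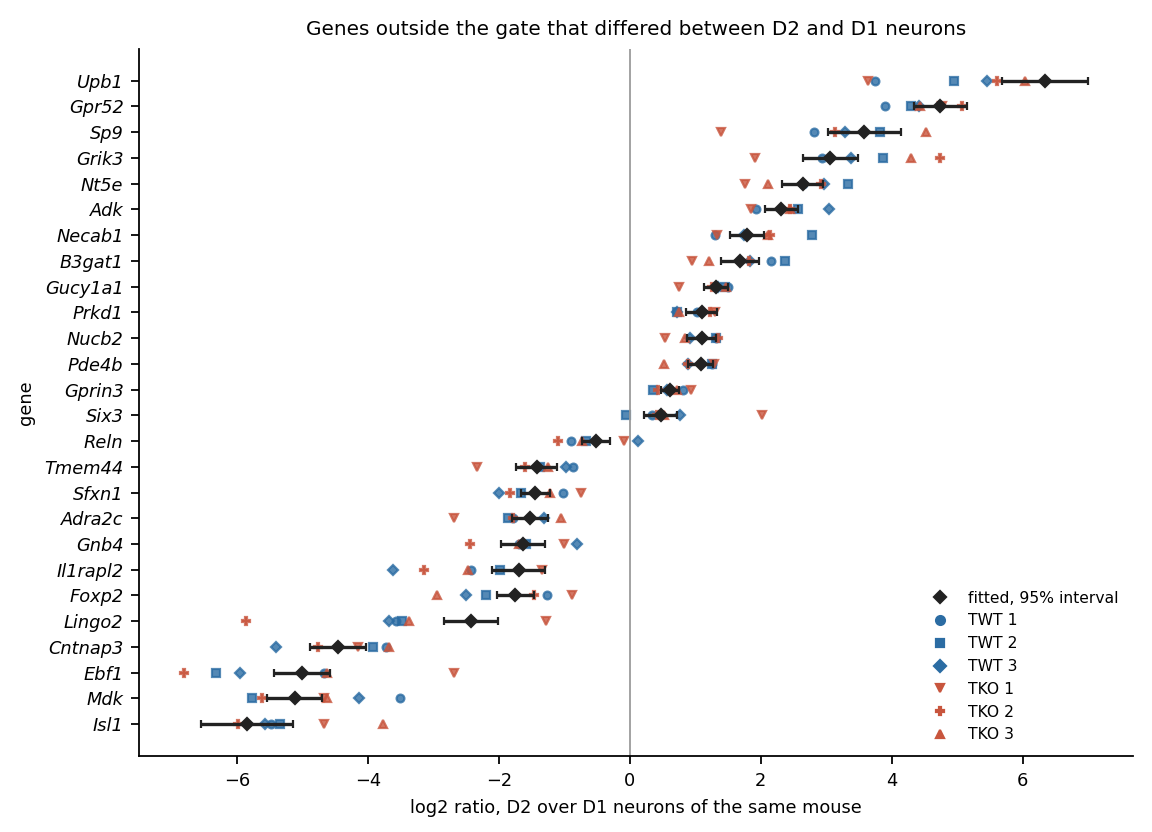
Log2 ratio of D2 over D1 neurons (horizontal axis) for the 26 named genes outside the rule; diamonds are edgeR's estimates with 95% intervals, small symbols the 6 mice (CPM plus 1, wild type in blue, knockout in red). All points of Gpr52, Upb1, Sp9, Grik3, Nt5e and Adk lie to the right and all of Isl1, Mdk, Ebf1 and Cntnap3 to the left; for Lingo2 and Il1rapl2 the point nearest to 0 is knockout mouse 1, whose counts of them are highest.

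The pathway lists were uneven between the classes. Of 33 tested genes of dopamine and cAMP signalling, 10 were called higher in D2 neurons and none lower. Of all 9314 genes, 2.66% were called higher and 2.06% lower. The list median on the log2 scale was 0.13, that of all genes 0.01. Besides Gpr52 and Pde4b these included Rgs2, which shortens G protein signals (0.65 ± 0.13), the G protein subunit genes Gnb5 (0.56 ± 0.08) and Gnal (0.20 ± 0.05), the phosphatase regulator Arpp19 (0.54 ± 0.06), Rasd2, Rasgrp2 and Pde2a. Rgs2 rested on knockout mouse 2, where it reached 255 CPM: without that mouse the log2 fold change was 0.34 (edgeR adjusted p = 0.218). Pde2a lost its call without knockout mouse 2 (edgeR adjusted p = 0.0501), without knockout mouse 3 (0.0537) and without interneuron nuclei (0.054), and Gnal without wild-type mouse 3 (0.0642). DESeq2 did not call Rgs2, Rasd2, Rasgrp2, Pde2a or Gnal.

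Of the 17 genes of all projection neurons, 8 were called higher in D2 neurons and none lower, median 0.21, against 2.66% higher and 2.06% lower over all genes. Rasd2, Rasgrp2, Pde2a and Gnal stand on the list above as well. Others were the transcription factor genes Meis2 (0.38 ± 0.05) and Foxp1 (0.32 ± 0.05) and Phactr1 (0.32 ± 0.04), a regulator of actin and of phosphatase. These small differences held in 6 of 6 mice. The rule asked for the same number of projection neuron UMIs in both classes, and the median depth per nucleus was 2496 to 6880 UMIs in D2 and 2826 to 7593 in D1 neurons.

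The receptor and channel genes that were called went both ways. Of all 9314 genes, 2.66% were called higher in D2 neurons and 2.06% lower. In lists this short, 1 or 2 calls are not read as a result about the list. Of 17 genes of peptides and opioids, 2 were called higher and 2 lower (median -0.04). The delta opioid receptor gene Oprd1 had 13.8, 25.3 and 39.0 CPM in D2 and 0, 1.97 and 26.8 in D1 neurons, and its log2 fold change of 2.27 ± 0.33 became 3.62 without knockout mouse 1, the mouse with both highest values. The kappa receptor gene Oprk1 was lower in D2 neurons of 6 of 6 mice (-0.60 ± 0.10, edgeR adjusted p = 0.000139). The prohormone convertase gene Pcsk2 was 0.18 ± 0.04 higher and the secretogranin gene Scg2 had a log2 fold change of -0.35. Of 20 glutamate receptor genes, 3 were called higher (Grik3, Grm3, Gria3) and 3 lower (Grik1, Grik2, Grin3a), median 0.06. Grik2 fell in D2 neurons of 6 of 6 mice (-0.48 ± 0.06); the calls of Grm3 and Grin3a were lost without knockout mouse 1 (edgeR adjusted p = 0.163 and 0.689), and Grik1 was then too low to test. Gria3 lost its call without any 1 of wild-type mice 2 and 3 and knockout mice 2 and 3 (edgeR adjusted p = 0.102 to 0.275). Of 28 potassium channel genes, 2 were called higher (Kcnk2, Kcnip4) and 1 lower (Kcnc2). Kcnk2, a background potassium channel, had 322, 930 and 1256 CPM in D2 and 246, 577 and 862 in D1 neurons, higher in 6 of 6 mice (0.63 ± 0.05, edgeR adjusted p = 9.08e-12), and Kcnc2 lost its call without knockout mouse 1 (edgeR adjusted p = 0.0907). Kcnip4 lost its call without wild-type mouse 2 (edgeR adjusted p = 0.055), without wild-type mouse 3 (0.0564) and without Scrublet doublets (0.342).

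Early activity genes leaned to D2 neurons: all 15 tested had a positive log2 fold change, median 0.46, and 2 were called. These were Junb (0.46 ± 0.12) and Npas4 (0.58 ± 0.16), each higher in 6 of 6 mice, and without knockout mouse 2 neither was called (edgeR adjusted p = 0.252 and 0.135). Junb also lost its call without wild-type mouse 3 (edgeR adjusted p = 0.0547), and Npas4 without wild-type mouse 2 (0.0745) and without knockout mouse 3 (0.216). Of 8 endocannabinoid genes, Mgll, which breaks down 2-arachidonoylglycerol, was called higher and Faah, which breaks down anandamide, lower, and neither without knockout mouse 1 (edgeR adjusted p = 0.0568 and 0.113). Mgll was also lost without wild-type mouse 1 or 3 (edgeR adjusted p = 0.0861 and 0.0795), and Faah without knockout mouse 2 or 3 (0.0511 and 0.131). Genes of the striatal compartments were called more often than the 4.72% of all genes: of the matrix, 3 of 6 higher (Rasgrp2, Epha4, Id4), of the striosomes, 1 of 5 higher (Bach2) and 2 lower (Khdrbs3, Sema5b), of the ventral and medial striatum, 1 of 4 lower (Wfs1, -0.70 ± 0.14), and none of 3 dorsolateral genes. Of these, Rasgrp2 and Wfs1 kept their calls without knockout mouse 1.

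Interneuron markers were also called between the classes. Vip, an interneuron peptide, had a log2 fold change of 3.94 ± 0.33 and Sst of -1.08 ± 0.19; without knockout mouse 1 these were 3.05 and -0.70. After the nuclei with at least 3 interneuron UMIs were left out, Vip was too low to test and Sst stood at 0.24 (edgeR adjusted p = 0.718). In that fit 378 genes were called, 342 of them among the 440. Of the 26 named genes with the largest folds or from the identity lists, 25 could be tested there and all 25 were called. DESeq2 called 25 of the 26 and the fit without the block 13; of 40 called genes from the other lists these called 14 and 0. Without knockout mouse 1 the fit called 417 genes, 330 of them among the 440, and 426 of the 427 of the 440 that were tested kept their sign.

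The genotype comparison within D2 neurons addressed whether loss of a microglial receptor changes these neurons in Tg-SwDI mice. No gene passed: 0 of 9442 (0%) had an adjusted p under 0.05 in edgeR's quasi-likelihood test, with 387 at an unadjusted p under 0.05, and DESeq2 also called 0, with 397. Without knockout mouse 1, edgeR called 0 of 9548 (283 unadjusted) and DESeq2 0 (77 unadjusted). A p that misses the threshold does not show that the neurons were alike.

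The genes with the smallest p were low in number of UMIs, and none passed the adjustment (edgeR adjusted p = 0.838 for each of the 10). Their values did not overlap between genotypes, but the genes were chosen by p, so this is no separate result. How many of all tested genes did not overlap was not counted. Tada2a, part of a histone acetylation complex, had 16.8, 10.1 and 10.0 normalized CPM in wild-type mice 1 to 3 and 44.8, 32.3 and 24.2 in knockout mice 1 to 3 (log2 fold change 1.499 ± 0.40 SE). Ctps2, a CTP synthase, had 6.30, 6.19 and 5.57 CPM against 37.5, 15.6 and 15.9, its highest value in knockout mouse 1. Crhr1, the receptor of corticotropin-releasing hormone, had 8.40, 6.96 and 5.57 CPM against 16.7, 16.7 and 14.8 (1.21 ± 0.36). Il11ra1, a cytokine receptor subunit (1.61 ± 0.40), and Polr2m, a subunit tied to RNA polymerase II (1.88 ± 0.55), were the other 2 on the higher side. Without knockout mouse 1 these 5 log2 fold changes ran from 1.19 to 1.88.

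On the lower side, Prox2, a homeobox gene, had 56.7, 52.6 and 70.2 CPM for wild type against 26.1, 37.5 and 27.7 in knockout (log2 fold change -0.98 ± 0.30 SE). C1ql3, a secreted protein of synapses, had 18.9, 14.7 and 22.3 CPM against 8.34, 3.13 and 5.90 (-1.65 ± 0.43). Clspn, a DNA replication checkpoint gene (-1.58 ± 0.41), Supt7l, part of a transcription coactivator complex (-1.12 ± 0.33), and Glycam1, a mucin gene (-1.80 ± 0.50), completed the 5. In D1 neurons of the same mice, which share the libraries, the log2 fold changes were 1.79 for Ctps2, 0.45 for Tada2a, 0.17 for Polr2m, -1.07 for Clspn, -0.61 for C1ql3, -1.05 for Supt7l and -0.78 for Prox2.

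**Figure D4:**
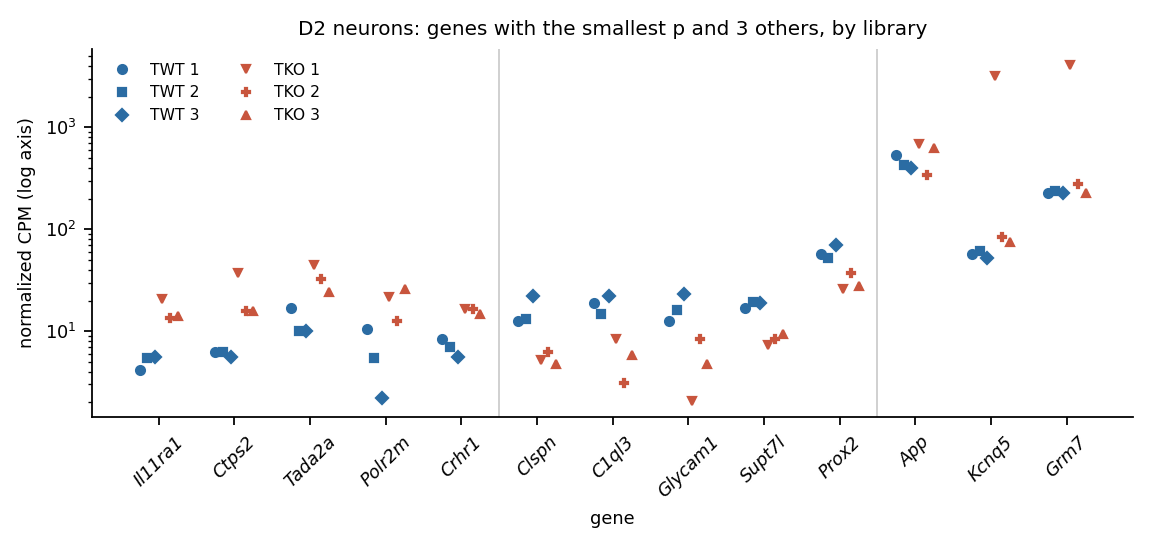
Normalized CPM (log axis) in D2 neurons of each library for the 10 genes with the smallest p, 5 higher and 5 lower in knockout, and for App, Kcnq5 and Grm7. For the first 10 the 3 knockout libraries lie on one side of the 3 wild-type libraries. These 10 were chosen by p, so the separation is no separate result, and none passed the adjustment. Kcnq5 and Grm7 stand out in knockout mouse 1 only.

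The widest list medians rested on knockout mouse 1. Among 28 potassium channel genes the median log2 fold change was 0.96 with that mouse and 0.05 without it, and among 19 glutamate receptor genes 1.30 and -0.02, against 0.05 and 0.01 over all genes tested. Kcnq5 had 56.7, 61.9 and 52.3 CPM for wild type against 3163, 83.3 and 75.5 in knockout mice 1 to 3. The metabotropic receptor gene Grm7 had 225, 236 and 225 CPM against 4070, 279 and 227. For the projection neuron gene Phactr1, the log2 fold change was 1.12 with knockout mouse 1 and -0.28 without it.

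The identity of the neurons was described the same way. Of 7 tested genes of the D2 identity list, 3 were higher and 4 lower in knockout, none called, with log2 fold changes from -0.56 to 0.73. Gpr52 had 98.7, 95.1 and 83.5 CPM for wild type against 26.1, 67.7 and 93.2 in knockout (log2 fold change -0.56, 95% interval -1.56 to 0.45; without knockout mouse 1 -0.18, interval -0.72 to 0.35). Upb1 had 50.4, 29.4 and 42.3 CPM against 25.0, 46.9 and 95.6, and stood at 0.88 without knockout mouse 1 (interval 0.16 to 1.60, edgeR adjusted p = 0.998). The 17 genes of all projection neurons had a median of 0.02 (10 higher, 7 lower), and the 34 of dopamine and cAMP signalling 0.18 (22 higher, 12 lower), falling to 0.03 without knockout mouse 1. Kcnk2, one of the channel genes higher in D2 than in D1 neurons, had 989, 1158 and 1234 CPM for wild type against 318, 839 and 717 in knockout. Its log2 fold change was -0.85 (interval -1.83 to 0.13, edgeR adjusted p = 0.838), and -0.54 without knockout mouse 1. The values did not overlap between genotypes, but how many of all tested genes did not overlap was not counted. The cannabinoid receptor gene Cnr1 had 158, 370 and 395 CPM against 142, 252 and 205 and overlapped (-0.63, interval -1.60 to 0.34).

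Within the 5 libraries of 1 software version, other genes had the smallest p, and none passed (edgeR adjusted p = 0.998 for each). The early activity gene Fosb had 4.38, 0.809 and 1.16 normalized CPM in wild-type mice 1 to 3 and 19.6 and 9.84 in knockout mice 2 and 3 (log2 fold change 3.04 ± 0.76 SE). The D2 sums of wild-type mice 1 to 3 held 462989, 1259048 and 961571 UMIs. Their Fosb levels thus stand for very few molecules, and the fold change rests on values near the floor. Npas4 had 16.8, 19.3 and 20.0 CPM against 99.0 and 27.7, and only 10.4 in knockout mouse 1. Of 19 activity genes 13 were higher in knockout, with a median of 0.36 against 0.01 over all genes, and 7 of the higher and 1 of the lower genes had an unadjusted p under 0.05. The lower one was Bdnf, a neurotrophin gene (log2 fold change -1.40). Rgs2 rested again on knockout mouse 2 (251 CPM, against 37.9 to 82.0 in the wild-type mice and 51.9 in knockout mouse 3).

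Lower genes in those 5 libraries were partly astrocyte and interneuron transcripts. Slc1a2, the astrocyte glutamate transporter, had 69.3, 79.6 and 60.1 CPM for wild type against 25.0 and 36.6 in knockout mice 2 and 3 (log2 fold change -1.16 ± 0.28 SE), with 77.1 in knockout mouse 1. In these 5 libraries 4 of the 8 astrocyte markers could be tested and all 4 were lower in knockout; their median was -0.79 on the log2 scale against 0.01 over all genes, with 1 at an unadjusted p under 0.05 and none called. The most abundant of them, the bicarbonate cotransporter gene Slc4a4, stood at -0.04. The sum of the 8 markers was 477, 623 and 500.2 CPM for wild type against 543 and 502 in knockout mice 2 and 3. Sst had 25.2, 32.5 and 26.7 CPM against 30.2, 9.38 and 12.98. Whether RNA of other cells enters these values was not tested.

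Ribosomal protein genes lay on the same side together in the 5 libraries. All 75 had a positive log2 fold change without knockout mouse 1 (65 of 75 with it), with a median log2 fold change of 0.72 against 0.01 over all genes, 9 at an unadjusted p under 0.05 and none called. Rpl35 had 27.3, 22.4 and 13.4 CPM for wild type against 10.4, 19.8 and 77.9 in knockout, and Rps6 44.1, 36.3 and 16.7 against 18.8, 47.9 and 86.2. Knockout mouse 3 also had the highest mean mitochondrial share, 2.27% of UMIs per D2 neuron, against 0.577% to 1.49% in the other libraries; the part of RNA quality in these values was not tested.

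The genotype effect was also compared between D2 and D1 neurons. It differed for 2 of 10345 genes (0.0193%), Sgcd and Vip, in edgeR's test, and for none without knockout mouse 1, where 435 genes had an unadjusted p under 0.05.

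Compartment genes gave no difference beyond the spread between mice. The 6 matrix genes summed to 711, 837 and 715 CPM for wild type against 633, 921 and 910 in knockout (two-sided exact permutation p = 0.6). The 6 striosome genes summed to 143, 110 and 95.7 against 450, 155 and 126 (exact p = 0.2), the highest again in knockout mouse 1. The 4 dorsolateral genes summed to 283, 583 and 511 against 182, 459 and 422 (exact p = 0.5), and the 6 ventral and medial genes to 145, 84.2 and 109 against 113, 124 and 353 (exact p = 0.4). The value of 353 is that of knockout mouse 3, which had 113 normalized CPM of Crym, a marker of medial striatum, against 24.7 to 75.0 in the other 5 mice. Without knockout mouse 1 the matrix sums no longer overlapped (two-sided exact permutation p = 0.2, the lowest value possible with 3 against 2 mice). The knockout mean of the striosome sum was then 24.6 CPM higher in place of 128. What part of the striatum each library holds was not tested.

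**Figure D5:**
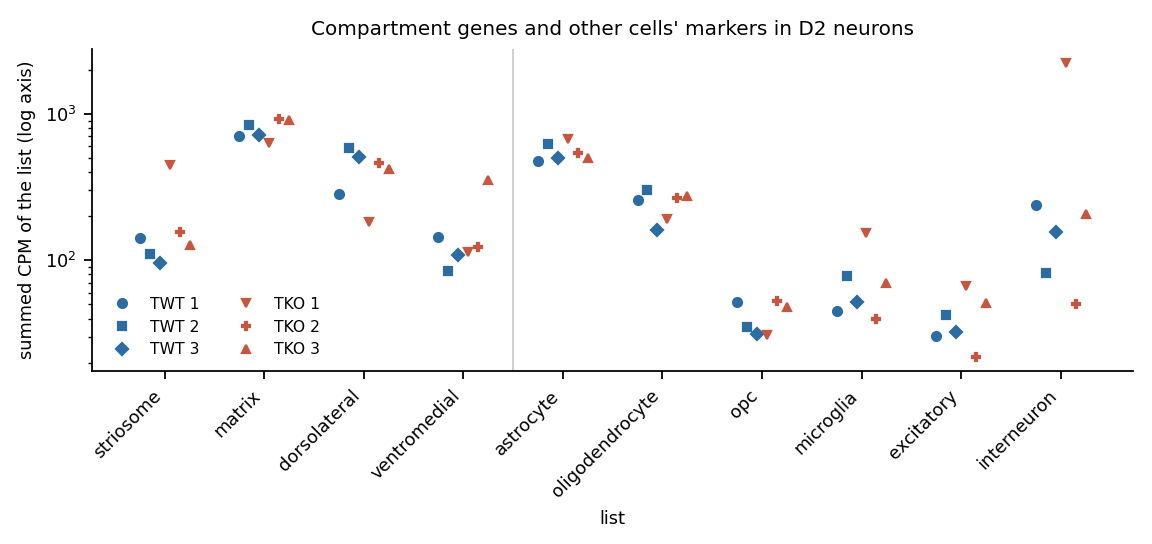
Summed CPM (log axis) in D2 neurons of each library for 4 lists of striatal compartment genes and 6 lists of markers of other cells, wild type in blue and knockout in red. Interneuron markers reach 2216 in knockout mouse 1 and stay between 50.5 and 238 in the other libraries; ventromedial genes reach 353 in knockout mouse 3.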

How the data were processed

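Nuclei of 6 mouse frontal lobes were sequenced with a droplet-based kit, per the labels' protocols. The authors deposited filtered matrices of raw UMI counts per gene and nucleus, made with Cell Ranger 7.0.0 (knockout mouse 1) or 6.1.2 (the other 5), per the file headers, on mm10, per the submitters' processing notes; the sources used here do not state whether intronic reads were counted. Library totals were 11493087 to 51317961 UMIs. The members and the gene lists were chosen with earlier results of these data known. Counts were summed per library and class, and genes were tested with edgeR 4.0.16 (TMM, filterByExpr, quasi-likelihood test, two-sided, Benjamini-Hochberg over all genes tested, threshold 0.05); the 18 genes of the rule stayed in library sizes and out of the tests. Each mouse gives both a D2 and a D1 sum, so the mouse was a block there. Shares and list sums were compared by exact permutation over the 20 assignments of 6 libraries, or over all assignments of 5 libraries where knockout mouse 1 was left out. Scripts were tested on simulated data. Scrublet (scanpy 1.11.5, expected rate 6%) marked 182, 1, 2, 233, 123 and 126 nuclei, so it did not work in wild-type mice 2 and 3; doublets were kept in the main analysis and left out in alternatives, one of which, the highest 6% of scores, was chosen after seeing the data, as was leaving out nuclei with interneuron UMIs. DESeq2 1.42.0 was an alternative. Genes were named by rule: for genotype, called genes or else the 5 smallest p per direction without unnamed, pseudogene, mitochondrial, ribosomal and sex-linked genes, with and without knockout mouse 1, up to 3 members of each list by p, and Trem2, App and Apoe; for D2 against D1, the 10 largest folds per direction among called genes with 1 direction in all mice and a mean of at least 50 CPM in the higher class, and the identity lists. Called members of other lists in D2 against D1 were named outside this rule, after their values were seen. Intron lengths came from GENCODE M21 (32235 of 32285 gene IDs matched) and promoters from RefSeq. Some genes that these rules name are not reported here.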

Additional observations from a re-analysis of the deposited data

Results flagged for a closer look

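The genotype effect differed between D2 and D1 neurons for 2 of 10345 genes (0.0193%) in edgeR's test of that difference, each at an adjusted p of 0.0224. For Sgcd, a sarcoglycan gene with long introns, the effect was 1.81 lower in D2 neurons (log2 difference -1.81 ± 0.33 SE). It had 14.99, 44.2 and 67.0 normalized CPM in D2 and 20.5, 19.2 and 24.4 in D1 neurons of wild-type mice 1 to 3, and 581, 20.3 and 33.0 in D2 and 1233, 22.6 and 19.1 in D1 neurons of knockout mice 1 to 3. For Vip the effect was 3.47 higher in D2 neurons (log2 difference 3.47 ± 0.66 SE). It had 103, 2.37 and 60.2 CPM in D2 and 14.6, 11.9 and 5.07 in D1 neurons of wild-type mice, and 475, 4.28 and 113 in D2 and 6.60, 0 and 4.40 in D1 neurons of knockout mice. Both have their highest value in knockout mouse 1, and without that mouse no gene was called (435 at an unadjusted p under 0.05; Sgcd -0.61 and Vip 2.69, edgeR adjusted p = 0.9996 each). Vip could not be tested once nuclei with at least 3 interneuron UMIs were left out, and Sgcd then stood at -1.38 (edgeR adjusted p = 0.262).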

How the results depend on the processing

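Paired mice mattered for D2 against D1: without the block of mice 18 genes were called and with DESeq2 167, against 440; leaving out 1 library at a time gave 315 to 430. The genotype comparison called 0 genes under each alternative run, as in the main analysis. The genotype effect that differs between the classes was called for 1 gene without nuclei holding interneuron UMIs and for 0 to 26 genes with 1 library left out, 26 without knockout mouse 3, 19 without knockout mouse 2 and 0 without wild-type mouse 2 or knockout mouse 1. The knockout minus wild-type difference of the D2 share ran from -1.68 to 2.39 percentage points with 1 library left out. Of 120 alternatives of 12 list sums, 17 changed sign. Scaled without mitochondrial UMIs and Malat1, the knockout minus wild-type differences in CPM were -66.7 for matrix genes, -76.3 for astrocyte, -41.2 for oligodendrocyte and -1.47 for oligodendrocyte precursor markers. Without Scrublet doublets the oligodendrocyte sum was -29.2, and without interneuron nuclei the interneuron sum was -27.1. With 1 library left out, the differences ran from -2776 to 5256 for mitochondrial genes, -10.9 to 83.4 for astrocyte, -29.0 to 1054 for interneuron, -3.68 to 53.6 for microglial, -35.3 to 34.7 for oligodendrocyte and -1.81 to 2.96 for vessel markers. Of 492 alternatives of 33 genotype genes 13 changed sign. With 1 library left out, log2 fold changes ran from -0.17 to 0.88 for Upb1, -0.055 to 1.01 for Grik3, -0.37 to 0.056 for Gprin3, -0.88 to 1.33 for Rgs2, -0.28 to 1.53 for Phactr1, -1.17 to 4.67 for Adarb2 and -0.46 to 1.31 for Rpl35. Over the 5 libraries without knockout mouse 1, Grik3 stood at -0.046 without interneuron nuclei and -0.051 with DESeq2, Phactr1 at -0.28 in both, and Adarb2 at -1.29 and -1.36. Of 847 alternatives of 66 genes named between D2 and D1 neurons, 148 lost the call and 1 changed sign, Sst at 0.24 without interneuron nuclei. Where no value above shows it, the cause was not tested. The D2 sums behind these tests held 462989 to 1415531 UMIs from 152 to 459 nuclei per library; the part of depth in the calls was not tested.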

Other observations

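No amyloid gene was called between the genotypes in D2 neurons. App, the amyloid precursor gene, had 531, 425 and 401 normalized CPM for wild type against 688, 338 and 630 for knockout (log2 fold change 0.29, 95% interval -0.56 to 1.14, edgeR adjusted p = 0.898). Before normalization its range over the 6 libraries was 356 to 754 CPM in D2 neurons, 338 to 711 in D1 neurons and 363 to 563 in glutamatergic nuclei, so that the classes overlapped. Of 19 amyloid genes tested, 9 were higher and 10 lower in knockout (median -0.03) and none was called. Between the classes, Thy1 was called higher in D2 neurons (0.30 ± 0.08 on the log2 scale, 5 of 6 mice) and Bin1, an endocytosis gene, lower (-0.41 ± 0.11). Thy1 lost its call without knockout mouse 3 (edgeR adjusted p = 0.311) and without wild-type mouse 2 (edgeR adjusted p = 0.211), and Bin1 without any 1 of the 3 knockout mice (edgeR adjusted p = 0.0535 to 0.149). Apoe, a lipid carrier of astrocytes, had 231, 195 and 141 CPM among wild-type D2 neurons against 104, 90.6 and 232 CPM among knockout ones and overlapped.

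No stress or lipid gene was called between the genotypes either (edgeR). Of 20 interferon genes 2 could be tested, both lower in knockout and neither called. Of 14 cholesterol genes 3 were higher and 11 lower (median -0.09), of 14 chaperone genes 8 higher and 6 lower (median 0.07), and of 23 nuclear genes of oxidative phosphorylation 14 higher and 9 lower (median 0.07), with none called and a median of 0.05 over all genes. Without knockout mouse 1, 21 of 23 oxidative phosphorylation genes were higher (median 0.22), 12 of 15 chaperone genes (median 0.27) and 6 of 15 cholesterol genes (median -0.08), with none called and a median of 0.01 over all genes. Within 5 megabases of Trem2, 49 genes were tested and 29 were higher in knockout (median 0.10); 2 had an unadjusted p under 0.05 and none was called.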
